A study of Rattus norvegicus with 32 samples.

Results

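Gene expression in rat hippocampal neurons 24 h after traumatic brain injury (TBI) was compared with that in neurons of sham-injured rats at the same time. The comparison used 2 pooled samples of TBI rats given saline and 2 pooled samples of sham-injured rats, out of 16 pools in the series. Each pool was hybridised to 2 arrays, so that 8 of 32 arrays entered, and duplicate arrays were averaged before any test. The pools were chosen by their titles and not by any measured value. All animals were adult male Sprague-Dawley rats. Injury was a moderate fluid percussion, in which a pressure pulse is delivered to the dura. The TBI rats received saline under the skin before the pulse, while the label of the sham rats at 24 h names no injection and the methods give them saline. The labels count the 24 h from that injection and the methods from surgery. Neurons were cut by laser capture microdissection (LCM) from the CA3 subfield on the injured side. The methods describe taking neurons next to degenerating ones but themselves negative for Fluoro-Jade, a stain of dying neurons, without naming groups. They regard the neurons of sham rats as uninjured as well as surviving. A pool holds cells of several rats, so that rats cannot be told apart within it. The other pools came from TBI and sham rats at 4 h, and from TBI rats given metyrapone (100 mg/kg) or carbenoxolone (30 mg/kg) at both times. The methods call the pools of a group biological replicates, each of several rats, so that p-values measure the spread between pools and not between single rats.

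CA3 pyramidal neurons are excitatory cells that receive the mossy fibres of the dentate gyrus and connect densely with each other, and they are among the cells most often lost after fluid percussion injury. In injured brain tissue, astrocytes raise their intermediate filament proteins and secrete acute phase and matrix proteins, and microglia raise lysosomal and complement genes. Neurons whose axons are damaged can switch on a separate set of genes, among them small heat shock proteins, galanin and the small proline-rich protein SPRR1A. A captured neuron can carry fragments of the glial processes that touch it, so that transcripts of several cell types can be present in a pool.

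The 4 TBI arrays detected 39.7% to 46.1% of their probes above background, and the 4 sham arrays 37.4% to 49.9%. Array medians, in scanner units, were 14.2 to 18.7 in TBI and 12.3 to 23.6 in sham. Slide runs were inferred here from large gaps between the slide numbers in the file headers, and no label names them. By that grouping all 8 arrays belonged to a single run of slides. Levels below are intensities divided by the median of their array, as a geometric mean of the duplicates, and levels of different probes are not comparable with each other. The TBI pools correlated with each other at r = 0.943 over 17635 probes on the log2 scale. The sham pools correlated with each other at r = 0.868, lower than any of the 4 correlations between a TBI and a sham pool (0.880 to 0.926). The SD of the log2 difference was 0.76 between the TBI pools and 1.16 between the sham pools. Duplicate arrays of a pool correlated at 0.956 to 0.986.

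The captured cells carried neuronal transcripts in both groups. Eno2, the neuronal enolase, stood at 597 and 722 in the TBI pools and 525 and 634 in the sham pools. Grik4, a kainate receptor subunit typical of CA3, stood at 137 and 212 in TBI and 237 and 246 in sham. The summed level of 8 measured genes of neurons in general was 944 and 1174 in TBI, against 980 and 916 in sham. Such a sum is set mainly by the brightest probes of its list, here Eno2 and Uchl1 (293 and 402 in TBI, 347 and 243 in sham). Dimmer members could differ widely between pools, as Nefm did at 3.08 and 3.94 in TBI, against 12.3 and 2.07 in sham. That of 11 genes of hippocampal excitatory neurons, plotted as CA3 pyramidal, was 274 and 363 in TBI, against 434 and 363 in sham. This list is not confined to CA3, and its Prox1 stood at 27.8 and 20.9 in TBI, against 10.7 and 36.2 in sham. Some genes of these lists were above background on none of the 8 arrays. They include Snap25 and Nefh of the general neuronal genes, and Calb1 and Neurod2 of the excitatory neuron genes. Transcripts of other cell types were present as well. The summed level of 12 astrocyte genes was 343 and 424 in TBI, against 480 and 419 in sham. Oligodendrocyte genes summed to 173 and 208 in TBI, against 162 and 220 in sham, with Mbp and Olig2 above background on no array. Interneuron genes summed to 110 and 96.5 in TBI, against 147 and 117 in sham, and endothelial genes to 85.3 and 119 in TBI, against 82.2 and 69.6 in sham. Genes of blood cells summed to 8.76 and 12.4 in TBI, against 7.71 and 8.12 in sham.

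The groups lay farthest apart in the lists of 18 measured genes of reactive astrocytes and of 16 genes of microglia and macrophages. The reactive astrocyte genes summed to 318 and 353 in the TBI pools, against 46.0 and 94.4 in the sham pools. The microglial genes summed to 160 and 144 in TBI, against 42.4 and 75.0 in sham, and Csf1r and Tyrobp made up most of that sum. In both lists each TBI pool lay above each sham pool, as the plot of summed marker levels by pool shows. The endothelial and blood sums given above separated in the same direction by less. Of the reactive astrocyte genes, Aspg, Cd109, Cd44, Cp, Cxcl10, Emp1, Osmr, S1pr3 and Steap4 were above background on no array. Microglial markers P2ry12, Ptprc, Ctss and Trem2 were above background on no array, while Tyrobp, Csf1r, Aif1 and Itgam were above it on all 8. In pooled material more cells of a type, or fragments of them, and more RNA per cell cannot be told apart. With 2 pools a side an exact two-sided permutation test cannot give a p below 0.333.

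**Figure D1:**
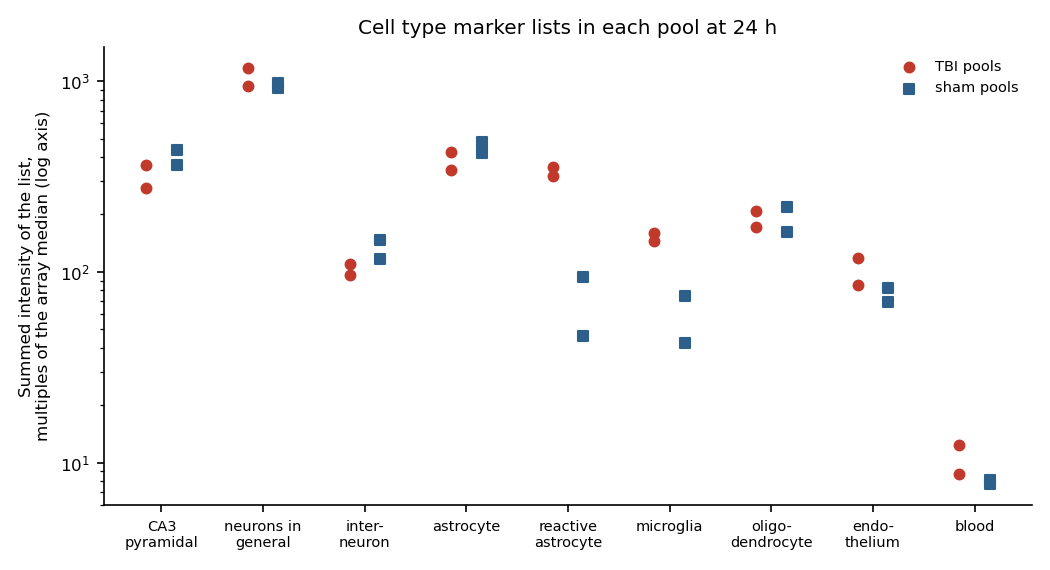
Summed intensity of 9 cell type marker lists in each pool at 24 h, in multiples of the array median on a log axis, with the 2 TBI pools as circles on the left and the 2 sham pools as squares on the right of each pair. The reactive astrocyte sums were 318 and 353 in TBI and 46.0 and 94.4 in sham, while the sums for neurons in general overlapped.

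No transcript passed the test after correction for multiple testing. Of 17618 probes tested with limma at 24 h, 0 (0%) reached an adjusted p below 0.05, and the smallest adjusted p was 0.284. At an unadjusted p below 0.05 there were 325 probes, 163 higher and 162 lower in TBI. Other fits changed the count at an adjusted p below 0.05. With all arrays in the fit and the pool as a random block 12 probes passed. With the TBI and sham pools at 24 h fitted alone 43 passed, 27 of them without a gene symbol. That fit leaves out the other arrays and keeps 12972 probes in place of 17635. With only the first array of each pool 2 passed, and the probes kept differ there as well. Of the 30 genes named below, 10 passed in the fit of the 24 h pools alone and 7 in that with the random block, Gfap, Lcn2, Gal and Gjb6 in both. By size, 721 probes were over 2-fold higher and 1182 over 2-fold lower in TBI. Taking 1 probe per named gene, 352 of 8310 genes (4.24%) were over 2-fold higher and 334 (4.02%) over 2-fold lower. Both TBI pools lay above both sham pools for 1156 genes (13.9%) and below both for 705 genes (8.48%). At an unadjusted p below 0.05, 88 genes (1.06%) were higher and 40 (0.481%) lower. Under the rule of the study, which requires the arrays of each group to lie within 2-fold of each other, 7167 probes qualified, of which 96 were over 2-fold higher and 128 over 2-fold lower. Single pools weighed heavily on the counts of genes over 2-fold. Without the first sham pool 802 genes were over 2-fold higher, without the second sham pool 1631 genes were over 2-fold lower, without the first TBI pool 557 genes were higher, and without the second TBI pool 605 genes were lower. The median log2 difference over all genes was 0.04, and the median standard error of a difference was 0.73.

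**Figure D2:**
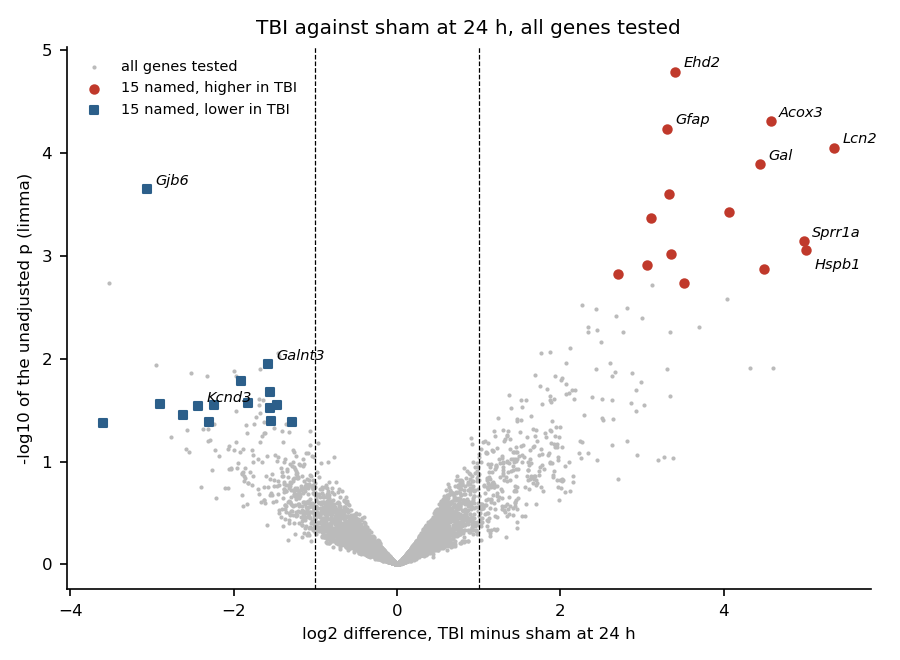
Log2 difference between TBI and sham at 24 h (x axis) against minus log10 of the unadjusted limma p (y axis) for 8310 genes in grey, with the 15 named genes on each side as red circles (higher in TBI) and blue squares (lower in TBI), and dashed lines at 2-fold. Ehd2 and Acox3 had the smallest p, the fitted log2 difference reached 5.35 for Lcn2, which no sham array detected, and none passed the adjusted threshold.

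The genes named next are the 15 of smallest p on each side among named genes above background on all 4 arrays of TBI or of sham. Those higher in TBI come first, by what they encode. All 15 had both TBI pools above both sham pools, with fitted log2 differences from 2.71 to 5.35 and adjusted p from 0.284 to 1. These genes were chosen by p in these same pools, which favours groups that do not overlap. For 9 of them, Lcn2 at 5.35 among them, no sham array was above background, so that the fitted value depends on signal below background and the fold is given as a lower bound. That bound sets the TBI mean against the weakest signal still called above background on the sham arrays. All 9 could meet the naming rule only through their TBI arrays, where they are high. Of them, Acox3, Cd68 and Top2a also entered the test only through their TBI arrays at 24 h, and had to be higher there.

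Gfap, the glial intermediate filament protein that marks astrocytes, stood at 33.5 and 39.4 in the TBI pools, against 2.63 and 5.10 in the sham pools. The means were 36.4 ± 4.16 in TBI and 3.86 ± 1.75 in sham (SD, n = 2 pools each), a log2 difference of 3.31 ± 0.54 (SE) with an adjusted p of 0.339. All 8 arrays measured it above background, and the groups did not overlap. Lcn2, lipocalin 2, an iron-siderophore-binding acute phase protein, stood at 25.7 and 39.1 in TBI, against 0.413 and 1.46 in sham. It was at least 27.4-fold higher in TBI, with an adjusted p of 0.389. Tnc, the matrix glycoprotein tenascin C, stood at 7.54 and 8.03 in TBI, against 0.1 and 1.20 in sham, where the lower value is the floor. It was at least 6.97-fold higher (adjusted p = 0.984). Adamts7, a secreted metalloprotease, stood at 10.7 and 5.28 in TBI, against 0.195 and 1.05 in sham, at least 6.75-fold higher (adjusted p = 0.447).

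Stress and axon injury genes formed another group. Hspb1, which encodes the small heat shock protein HSP27, stood at 57.7 and 74.4 in the TBI pools, against 0.631 and 6.58 in the sham pools. Its log2 difference was 5.01 ± 1.14 (adjusted p = 0.736), and the sham pools themselves differed widely, with 2 of the 4 sham arrays above background. Sprr1a, a small proline-rich protein of epithelia that injured sensory neurons of rodents also make, stood at 26.4 and 7.59 in TBI, against 0.165 and 1.23 in sham. It was at least 12.3-fold higher in TBI (adjusted p = 0.660). Gal, the precursor of the neuropeptide galanin, stood at 20.1 and 15.3 in TBI, against 0.532 and 1.22 in sham. It was at least 15.7-fold higher (adjusted p = 0.402). No sham array detected Gal or Sprr1a, while all 4 TBI arrays did. Promoters of these 3 genes, and of Gjb6 as the named gene of smallest p on the lower side, are printed here from RefSeq (GRCr8), each as 300 bases around the transcription start. Capitals mark matches on either strand to GAANNTTC (paired heat shock elements, Hspb1), TTCNNGAA (the same elements in the other order, Gjb6), TGANTCA (the AP-1 site, Sprr1a) and TATAAA (the TATA box, Sprr1a and Gal). No marked matches overlap, and TTCNNNGAA (paired STAT half-sites) was searched and is in none of them. The windows lie at chr12:26432252-26432551, minus strand (Hspb1), chr2:180752576-180752875, minus strand (Sprr1a), chr1:210084523-210084822, minus strand (Gal), chr15:35408913-35409212, minus strand (Gjb6).
Hspb1: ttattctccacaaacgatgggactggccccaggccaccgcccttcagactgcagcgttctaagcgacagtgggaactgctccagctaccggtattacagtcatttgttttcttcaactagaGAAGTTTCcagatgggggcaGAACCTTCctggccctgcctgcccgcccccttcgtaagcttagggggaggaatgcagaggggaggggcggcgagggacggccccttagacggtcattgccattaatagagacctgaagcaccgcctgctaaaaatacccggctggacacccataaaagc
Sprr1a: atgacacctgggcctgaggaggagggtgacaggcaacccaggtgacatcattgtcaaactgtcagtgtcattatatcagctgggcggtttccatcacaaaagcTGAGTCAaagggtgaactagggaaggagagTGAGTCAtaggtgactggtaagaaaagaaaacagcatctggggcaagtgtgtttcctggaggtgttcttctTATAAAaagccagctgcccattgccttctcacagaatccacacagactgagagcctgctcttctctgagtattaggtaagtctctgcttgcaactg
Gal: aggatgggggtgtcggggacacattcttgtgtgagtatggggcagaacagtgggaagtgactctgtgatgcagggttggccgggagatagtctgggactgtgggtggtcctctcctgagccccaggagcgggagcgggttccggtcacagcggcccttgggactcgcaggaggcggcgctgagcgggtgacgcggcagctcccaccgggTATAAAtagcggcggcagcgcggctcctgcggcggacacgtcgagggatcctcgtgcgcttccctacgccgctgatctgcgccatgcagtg
Gjb6: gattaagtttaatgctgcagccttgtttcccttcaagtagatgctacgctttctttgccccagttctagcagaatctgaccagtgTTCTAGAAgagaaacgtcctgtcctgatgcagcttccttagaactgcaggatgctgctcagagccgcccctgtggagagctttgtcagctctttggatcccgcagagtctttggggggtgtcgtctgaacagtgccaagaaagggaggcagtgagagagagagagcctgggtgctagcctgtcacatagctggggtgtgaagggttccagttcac

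Across RefSeq, GAANNTTC is held by 8.59% of 33469 promoters of this length, and by 5 of the 15 genes higher in TBI (Ehd2, Hspb1, Tlr2, Plin2 and Top2a). TGANTCA is held by 7.33% of all promoters and by 2 of the 15 (Cd68 and Sprr1a), and TATAAA by 14.2% and by 4 of the 15 (Gal, Adamts7, Sprr1a and Tnc). TTCNNGAA is held by 8.77% of all promoters and TTCNNNGAA by 8.87%, and by 0 of the 15 in each case. Of the 15 genes lower in TBI, 13 had a promoter in the table. TTCNNGAA was found in 3 of them (Gjb6, Galnt3 and Crebl2), TTCNNNGAA in 2 (Crebl2 and Kcnd3) and TATAAA in 1 (Galnt3). GAANNTTC and TGANTCA were found in 0 of the 13. A match describes the letters of the window and is not a measured binding site.

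Immune genes followed. Cd68, a lysosomal glycoprotein of macrophages and microglia, stood at 4.41 and 3.74 in the TBI pools, against 0.782 and 0.282 in the sham pools. It was at least 3.62-fold higher in TBI (adjusted p = 0.472). Tlr2, a receptor for bacterial lipoproteins found on microglia, stood at 2.07 and 2.84 in TBI, against 0.207 and 0.272 in sham, at least 2.18-fold higher (adjusted p = 0.766). All TBI arrays and no sham array measured these 2 genes above background.

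The remaining genes of this side serve the cytoskeleton, membranes, lipids and DNA. Ehd2, an ATPase that coats the neck of caveolae, had the smallest p of all named genes. It stood at 19.9 and 21.6 in the TBI pools, against 2.40 and 1.60 in the sham pools, a log2 difference of 3.40 ± 0.49 (adjusted p = 0.284). The groups lay far apart relative to the spread within each. A dimmer Ehd2 probe read 3.72 and 5.09 in TBI, against 1.04 and 2.95 in sham, which is the same direction with a smaller log2 difference of 1.32. Tagln2, an actin-binding protein of the transgelin family, stood at 16.7 and 23.4 in TBI, against 1.02 and 3.82 in sham (adjusted p = 0.402). Rhoc, a small GTPase, stood at 11.3 and 13.1 in TBI, against 1.30 and 1.65 in sham (adjusted p = 0.947). These genes act on actin, and in both the TBI pools were close to each other. Acox3, a peroxisomal oxidase of branched-chain acyl-CoA, stood at 5.31 and 8.38 in TBI, against 0.244 and 0.323 in sham, at least 5.98-fold higher (adjusted p = 0.339). Plin2, the perilipin that coats lipid droplets, stood at 11.6 and 19.7 in TBI, against 1.84 and 2.92 in sham (adjusted p = 1). Top2a, the topoisomerase of dividing cells, stood at 3.11 and 2.00 in TBI, against 0.172 and 0.277 in sham, at least 2.24-fold higher (adjusted p = 1).

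**Figure D3:**
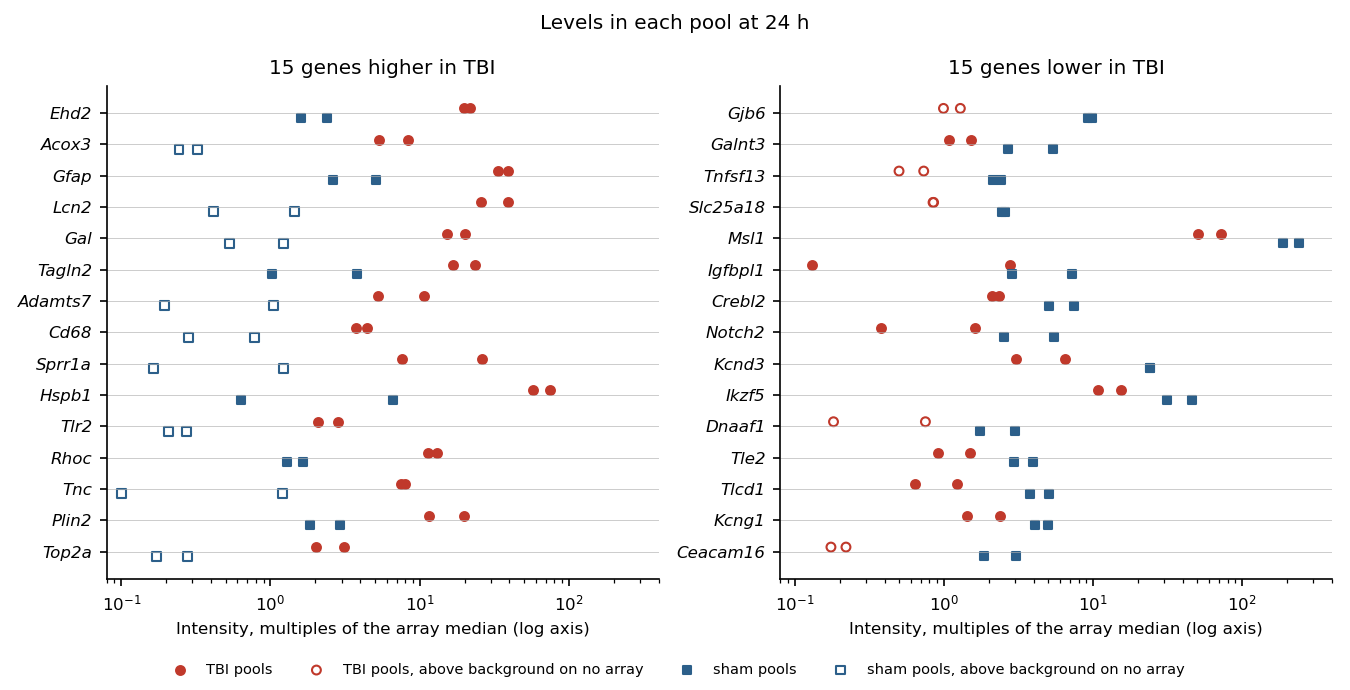
Level of each of the 15 named genes on each side in the 2 TBI pools (red circles) and the 2 sham pools (blue squares) at 24 h, in multiples of the array median on a log axis, with open symbols where a group was above background on no array. The groups do not overlap in any of the 30 genes, as with Gfap at 33.5 and 39.4 in TBI and 2.63 and 5.10 in sham. The genes were chosen by p in these same pools, which favours groups that do not overlap. Levels of different genes are not comparable.

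The 15 named genes on the lower side had fitted log2 differences of -1.29 to -3.60, the last for Ceacam16 with no TBI array above background. Their adjusted p was 0.402 to 1, and both TBI pools lay below both sham pools in each. They too were chosen by p in these same pools. For 5 of them no TBI array was above background, so that these met the naming rule only through their sham arrays. Gjb6, which encodes connexin 30, a gap junction protein of astrocytes, had the smallest p of the 15. It stood at 1.29 and 0.994 in the TBI pools, where no array was above background, against 9.77 and 9.22 in the sham pools. It was at least 7.48-fold lower in TBI (adjusted p = 0.402). Gja1, which encodes connexin 43, the other main astrocyte connexin, stood at 4.35 and 6.78 in TBI, against 20.0 and 13.4 in sham, a log2 difference of -1.59 (adjusted p = 1). The pools of the 2 groups did not overlap for either connexin. Slc25a18, a mitochondrial glutamate carrier, stood at 0.846 and 0.853 in TBI, against 2.43 and 2.56 in sham, at least 2.15-fold lower (adjusted p = 1). Notch2, a receptor of the Notch family, stood at 0.381 and 1.61 in TBI, against 5.46 and 2.54 in sham. Tle2, a corepressor of the Groucho family that acts in Notch and Wnt signalling, stood at 0.916 and 1.503 in TBI, against 3.99 and 2.95 in sham. Another Tle2 probe read 0.556 and 0.794 in TBI, against 3.23 and 1.89 in sham, which is the same direction.

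Kcnd3 and Kcng1, both potassium channel subunits, were also among the named genes. Kcnd3, which encodes Kv4.3, a subunit of the fast inactivating A-type current, stood at 6.48 and 3.03 in the TBI pools, against 24.0 and 24.0 in the sham pools. Its log2 difference was -2.44 ± 0.98 (adjusted p = 1). The other 2 probes of Kcnd3 did not show it, with 1.62 and 1.94 in TBI against 1.11 and 1.90 in sham for the first, and 1.45 and 1.47 in TBI against 1.06 and 1.53 in sham for the second. The first was above background on 2 TBI and 3 sham arrays, the second on 3 TBI and 1 sham array, of 4 each. Kcnd2, the related Kv4.2 subunit, stood at 1.30 and 2.35 in TBI, against 8.91 and 3.15 in sham (adjusted p = 1). Kcng1, a modifying subunit that forms no channel alone, stood at 1.43 and 2.37 in TBI, against 4.09 and 4.96 in sham. Over the 20 genes tested of the potassium channel list, which does not hold Kcng1, 0 were over 2-fold higher and 2 over 2-fold lower (Kcnd3 and Kcnd2), against 4.02% of all genes, with a median log2 difference of -0.16. Among 17 sodium, calcium and other cation channel genes (median -0.11), 2 were over 2-fold lower (Trpc6 and Cacna1b), against 4.02% of all genes, and 0 higher.

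Regulators of transcription were found on the same side. Msl1, a subunit of a histone acetyltransferase complex, stood at 71.8 and 50.2 in the TBI pools, against 188 and 239 in the sham pools. Another Msl1 probe read 10.9 and 13.3 in TBI, against 34.9 and 7.21 in sham, so that the probes of this gene disagree. Ikzf5, a zinc finger protein of the Ikaros family, stood at 10.8 and 15.5 in TBI, against 46.0 and 31.3 in sham. Crebl2, a bZIP protein related to CREB, stood at 2.11 and 2.35 in TBI, against 7.46 and 5.08 in sham. Another Crebl2 probe read 0.547 and 1.52 in TBI, against 1.83 and 1.20 in sham, which overlap. The pools of both groups were above background on every array for Msl1, Ikzf5 and the first Crebl2 probe. The other genes of this side were near background in TBI. Galnt3, which starts mucin-type O-glycosylation, stood at 1.08 and 1.51 in TBI, against 5.40 and 2.68 in sham. Tnfsf13, the cytokine APRIL, was at least 1.96-fold lower, with no TBI array above background. Dnaaf1, an assembly factor of dynein arms, was likewise at least 1.97-fold lower, and Ceacam16, a cell adhesion protein of the inner ear, at least 2.05-fold lower. Dnaaf1 entered the test only through its sham arrays at 24 h, and had to be lower in TBI. Igfbpl1 and Tlcd1 stood at 2.77 and 0.132, and at 0.636 and 1.23, in TBI. In sham they stood at 7.21 and 2.85, and at 5.04 and 3.79.

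Gene lists gave a wider view of the same difference. Across 46 lists, 673 genes were tested, and 0 passed the adjusted threshold. Of the 673, 62 were over 2-fold higher and 28 over 2-fold lower, against 4.24% and 4.02% of all genes. At an unadjusted limma p below 0.05, 23 of them were higher and 5 lower, against 1.06% and 0.481% of all genes. The median log2 difference lay between -0.5 and 0.5 in 41 lists and above 0.5 in 5. The lists were compiled with earlier results of these data known, so that their medians describe them without a test.

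Of 18 reactive astrocyte genes with a probe 9 were tested, and 7 were over 2-fold higher, against 4.24% of all genes, and 0 over 2-fold lower. The median log2 difference was 2.92, and over the 5 genes above background on all 8 arrays it was 2.34. Besides Gfap, Lcn2 and Hspb1 these were Timp1, Vim, Nes and Cd14. Timp1, the tissue inhibitor of metalloproteinases, stood at 67.2 and 79.2 in the TBI pools, against 3.46 and 24.0 in the sham pools. Vim, the filament protein vimentin, stood at 84.0 and 75.9 in TBI, against 13.9 and 17.9 in sham. Nes, which encodes nestin, a filament of progenitors and reactive astrocytes, stood at 6.27 and 8.05 in TBI, against 1.24 and 2.20 in sham. Cd14, a co-receptor for bacterial lipopolysaccharide, was at least 5.32-fold higher in TBI. All of these had an adjusted p of 1. Serpina3n and Tgm1 did not separate, with log2 differences of 0.22 and 0.20. Without the first sham pool the median of the list was 2.01, and without the second it was 3.79.

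Of 11 tested genes of astrocytes in general (median -0.41), 1 (Gfap) was over 2-fold higher, against 4.24% of all genes. Another 1 (Gja1) was over 2-fold lower, against 4.02% of all genes. Both TBI pools lay below both sham pools for 4 of the 11, against 8.48% of all genes. Those were Gja1, Ndrg2, Aldoc and Glul. Aldoc, the brain aldolase, stood at 31.0 and 55.7 in TBI, against 77.7 and 64.3 in sham, and Ndrg2, a cytosolic protein abundant in astrocytes, at 10.8 and 14.5 in TBI, against 27.1 and 16.9 in sham. Glul, the glutamine synthetase, stood at 170.1 and 180.5 in TBI, against 199.96 and 187.2 in sham, a difference of about the spread within the groups. Slc1a3 and Aqp4 overlapped between the groups. Leaving out 1 pool at a time moved the median between -0.34 and -0.19. The summed levels of both astrocyte lists are given above, and the share of glial RNA in these differences was not tested.

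Of 16 microglial genes with a probe 9 were tested, among them Cd68, which entered only through its TBI arrays. Of these, 5 were over 2-fold higher, against 4.24% of all genes, and 0 lower, with a median of 1.52. In 7 both TBI pools lay above both sham pools, against 13.9% of all genes, and Cd68 is in both counts. Tyrobp, the signalling adaptor of microglial receptors, stood at 40.3 and 46.8 in the TBI pools, against 8.27 and 13.9 in the sham pools. Csf1r, the receptor for the growth factor that keeps microglia alive, stood at 88.0 and 62.7 in TBI, against 17.2 and 39.1 in sham. The complement subunits C1qa and C1qb stood at 2.48 and 2.65, and at 1.12 and 1.94, in TBI. In sham they stood at 1.75 and 0.441, and at 0.335 and 0.777. Aif1, the calcium-binding protein IBA1, stood at 2.87 and 5.27 in TBI, against 2.23 and 2.18 in sham. Cx3cr1 and Itgam overlapped. Each had an adjusted p of 1 except Cd68. Over the 6 members above background on all 8 arrays the median was 0.73, and without the first sham pool the median of the list was 0.92, and without the second 0.90.

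**Figure D4:**
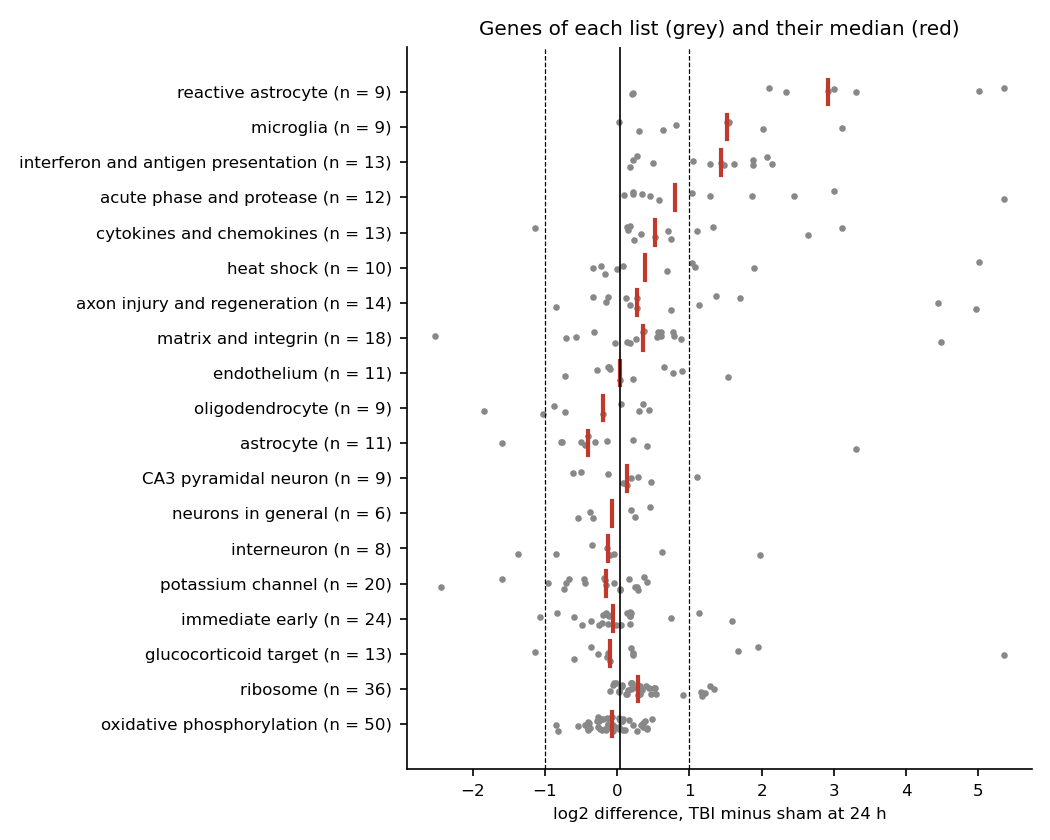
Log2 difference between TBI and sham at 24 h for each tested gene of 19 lists (grey points) with the list median (red bar), a solid line at the median of all genes (0.04) and dashed lines at 2-fold. The reactive astrocyte, microglia and interferon lists have medians of 2.92, 1.52 and 1.43, and the neuronal lists lie around 0.

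Interferon and antigen presentation genes were the third list with a median above 1. Of 13 tested, 9 were over 2-fold higher, against 4.24% of all genes, and 0 lower. The 9 include B2m, which overlapped between the groups and was above background on no TBI array, and RT1-Ba, which entered only through its TBI arrays. The median was 1.43, although over the 5 members above background on all 8 arrays the median was 0.27. Psmb8, a subunit of the immunoproteasome, stood at 106 and 41.4 in the TBI pools, against 12.03 and 38.4 in the sham pools. Irf9, a transcription factor of the interferon response, stood at 21.7 and 23.7 in TBI, against 6.89 and 10.2 in sham. Isg15, the interferon-induced ubiquitin-like protein, was at least 2.81-fold higher. Tap1, which carries peptides into the endoplasmic reticulum, was at least 1.80-fold higher, and RT1-Ba, a class II chain, at least 1.99-fold. Mx1, Mx2 and Ifi47 overlapped between the groups. All 13 had an adjusted p of 1.

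Among 12 tested acute phase, protease and inhibitor genes 6 were over 2-fold higher, against 4.24% of all genes, and 0 lower (median 0.80). Besides Lcn2 and Timp1 these were Adamts1, Timp2, Mmp9 and Plau, of which Plau overlapped between the groups. Mmp9, the gelatinase that cuts basement membrane, stood at 3.99 and 1.68 in TBI, against 0.462 and 1.08 in sham. Secreted cytokines and chemokines (median 0.52) had 4 of 13 genes over 2-fold higher, by the same background of 4.24%. They had 1 over 2-fold lower, Cxcl12, against 4.02% of all genes. Ccl2, the chemokine that draws monocytes, stood at 3.51 and 4.26 in the TBI pools, against 0.276 and 0.715 in the sham pools, at least 3.46-fold higher. Ccl7, a related chemokine, stood at 9.80 and 16.6 in TBI, against 1.34 and 3.12 in sham. Cxcl1, a neutrophil attractant, stood at 4.45 and 5.01 in TBI, against 2.098 and 1.70 in sham. All of these had an adjusted p of 1. Tnf stood at 4.58 and 6.24 in TBI, against 3.42 and 4.06 in sham, a log2 difference of 0.52, and Il1b was above background on no array of either group at 24 h.

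Neuronal gene lists had medians near that of all genes with all 4 pools. Grik4, given above, had both TBI pools below both sham pools, with a log2 difference of -0.50 (adjusted p = 1). Of 9 hippocampal excitatory neuron genes tested 0 were over 2-fold lower (median 0.13). Of 6 genes of neurons in general 0 exceeded 2-fold (median -0.07). The lists of AMPA and kainate receptors (median -0.21, 4 genes), NMDA receptors and scaffolds (median -0.02, 13 genes) and GABA-A receptors (median -0.08, 6 genes) had 0 genes over 2-fold in either direction. So did 50 genes of oxidative phosphorylation (median -0.07). Grin1, the obligate NMDA receptor subunit, stood at 329.9 and 361 in TBI, against 207 and 295 in sham, and Gria2, an AMPA receptor subunit, at 106 and 116 in TBI, against 210.0 and 102 in sham. Of 20 synaptic vesicle genes 2 were over 2-fold lower (Syt4 and Rph3a), against 4.02% of all genes, and 0 higher. Ribosomal protein genes had 5 of 36 over 2-fold higher, against 4.24% of all genes, and 0 lower (median 0.29), and 3 of the 5 (Rps16, Rpl34 and Rpl4) overlapped between the groups. These medians moved with single sham pools. Without the first sham pool they were 0.49 for neurons in general, 0.40 for oxidative phosphorylation and 0.51 for ribosomal proteins, and without the second sham pool -0.55, -0.65 and 0.01. The median of the excitatory neuron genes was -0.05 without the first and -0.22 without the second.

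Among axon injury and regeneration genes, 5 of 14 were over 2-fold higher, against 4.24% of all genes, and 0 lower (median 0.27), namely Gal, Sprr1a, Tubb6, Stat3 and Klf6, of which Klf6 overlapped between the groups. Stat3, the transcription factor downstream of interleukin 6 receptors, stood at 10.9 and 10.2 in the TBI pools, against 4.15 and 2.54 in the sham pools (adjusted p = 1). Atf3, a transcription factor of injured neurons, stood at 11.2 and 9.65 in TBI, against 5.02 and 7.65 in sham. Gap43, the growth cone protein, stood at 209 and 202 in TBI, against 219 and 228 in sham. Of 10 heat shock genes (median 0.39) 4 were over 2-fold higher, against 4.24% of all genes, and 0 over 2-fold lower. The 4 were Hspb1, Hspb8, Hsf1 and Bag3, of which Hspb8 was above background on no array, while Hsph1 and Hspd1 overlapped. By sign alone 6 of the 10 were higher and 4 lower. Over the 5 members above background on all 8 arrays the median was -0.16. With 1 pool left out the median of the list ranged from -0.08 to 1.08. Of 14 BCL2 family genes (median 0.03), 1 was over 2-fold higher (Bak1), against 4.24% of all genes. In the other direction 2 were over 2-fold lower (Bid and Bnip3), against 4.02% of all genes. Of the 14, 1 entered the test only through its sham arrays at 24 h, which favours a lower value in TBI. Bak1, a pore-forming death effector, stood at 16.2 and 11.7 in TBI, against 5.14 and 5.56 in sham. Bnip3, a mitochondrial BH3 protein, stood at 2.03 and 3.07 in TBI, against 8.63 and 3.20 in sham, and Bid overlapped between the groups. Tnfrsf12a, the receptor for TWEAK, stood at 14.3 and 11.03 in TBI, against 4.75 and 3.42 in sham. Of 9 oligodendrocyte genes tested 4 were higher and 5 lower in TBI (median -0.20). Of these 2 were over 2-fold lower, against 4.02% of all genes, and 0 over 2-fold higher. Mobp, a myelin protein, stood at 2.81 and 5.50 in TBI, against 10.1 and 20.0 in sham. Olig1 of the same list went the other way, at 59.9 and 68.5 in TBI, against 38.7 and 57.3 in sham.

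Hsd11b1, the enzyme that regenerates active glucocorticoid and the target shared by both drugs of the series, stood at 3.78 and 4.82 in the TBI pools, against 7.32 and 4.41 in the sham pools. The log2 difference was -0.41 ± 0.88, and the groups overlapped. Nfkbia, the inhibitor of NF-kB, stood at 6.09 and 7.19 in TBI, against 9.74 and 5.41 in sham, a log2 difference of -0.13 ± 0.80. Both had an adjusted p of 1. Of 13 genes induced by glucocorticoids (median -0.11), 3 were over 2-fold higher, Lcn2, Cdkn1a and Cebpd, against 4.24% of all genes. Another 1, Sult1a1, was over 2-fold lower, against 4.02% of all genes. Cdkn1a and Sult1a1 overlapped between the groups. Fkbp5, a receptor co-chaperone and a common readout of glucocorticoid action, stood at 112 and 121 in TBI, against 183 and 108 in sham.

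The difference at 24 h was set against the difference between TBI and sham at 4 h, which used other pools. Of 17596 probes tested for a change in the injury effect between the times with limma, 0 (0%) passed an adjusted p of 0.05, with a smallest adjusted p of 0.154, and 414 had an unadjusted p below 0.05. The 4 h sham pools and the first 4 h TBI pool lay in another slide run, so that time and run cannot be told apart for them. Over 8299 genes the log2 differences at 4 h and 24 h had a Pearson correlation of -0.05 and a Spearman correlation of -0.16, given as a description, since genes are not independent. The median log2 difference over genes was 0.37 at 4 h and 0.04 at 24 h, and values at 4 h are read relative to it. The 3 lists with the highest medians at 4 h were near 0 at 24 h. Immediate early genes had a median of 1.13 at 4 h and -0.06 at 24 h, glucocorticoid-induced genes 1.18 and -0.11, and corticosteroid receptors and their enzymes 1.23 and 0.04. In contrast the reactive astrocyte genes had 0.47 at 4 h and 2.92 at 24 h, microglial genes -0.44 and 1.52, and interferon genes 0.11 and 1.43. Acute phase genes had 0.74 at 4 h and 0.80 at 24 h, and cytokines 0.73 and 0.52. Over members above background on all 8 arrays at 24 h, the 24 h medians were 0.34 (5 acute phase genes) and 0.18 (7 cytokine genes). None of these changes in a list median was tested.

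**Figure D5:**
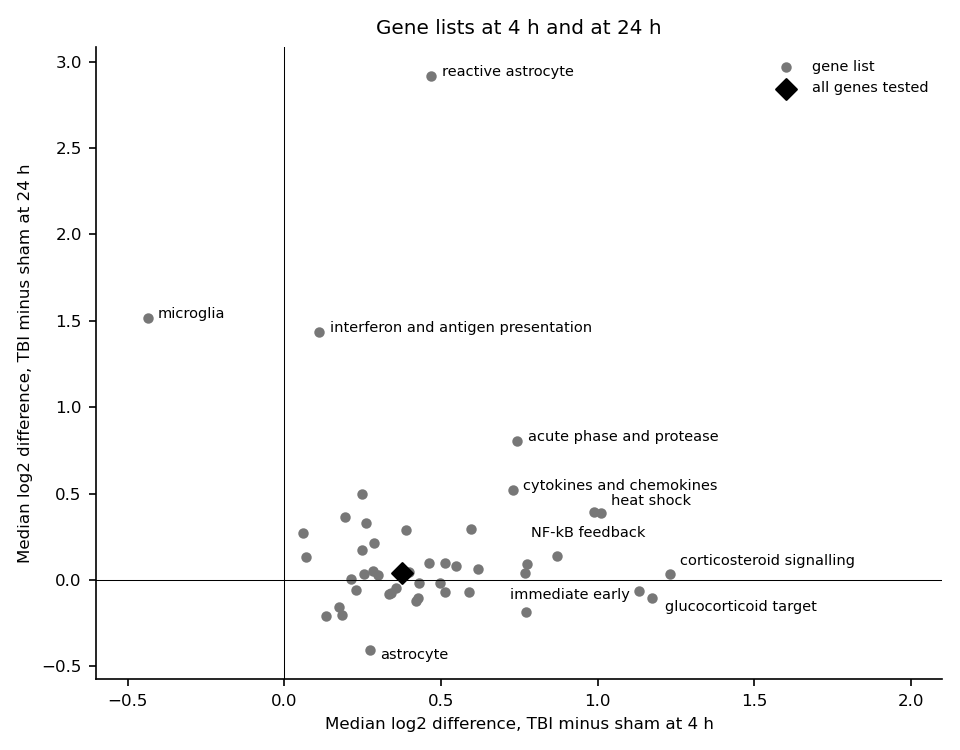
Median log2 difference between TBI and sham of 46 gene lists at 4 h (x axis) and at 24 h (y axis), with all genes tested as a black diamond. Reactive astrocyte, microglia and interferon lists stand high on the 24 h axis (2.92, 1.52 and 1.43), while immediate early and glucocorticoid lists stand at 1.13 and 1.18 on the 4 h axis and near 0 at 24 h.

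Single genes followed several courses. Lcn2 was high after injury at both times, with 24.8 and 31.4 in TBI at 4 h, against 0.689 and 2.58 in sham at 4 h. Gfap stood at 10.2 and 15.3 in TBI at 4 h, against 3.77 and 6.80 in sham, and so already lay above sham at 4 h. Of the 15 named genes on the higher side at 24 h, these were the only 2 whose TBI pools lay above the sham pools at 4 h as well, against 3321 of 8298 genes (40%) at 4 h. Gal, by contrast, stood at 1.08 and 1.46 in TBI at 4 h, against 1.42 and 1.39 in sham, and Ehd2 at 7.02 and 7.61 in TBI, against 6.43 and 11.3 in sham. Hspb1 stood at 2.51 and 19.8 in TBI at 4 h, against 9.13 and 4.18 in sham. None of the 3 separated at 4 h. Of the 15 genes on the lower side, 6 also had their TBI pools below the sham pools at 4 h, against 564 of 8298 genes (6.8%). Kcnd3 was among them, at 18.02 and 2.22 in TBI at 4 h, against 24.2 and 38.0 in sham. Gjb6 stood at 24.9 and 41.7 in TBI at 4 h, against 14.8 and 40.2 in sham, so that the 24 h minus 4 h difference of its injury effect was -3.47 on the log2 scale (adjusted p = 1).

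The 8 genes of smallest p among those with a lower injury effect at 24 h than at 4 h were Gjb6, Prss35, Cbr3, Rhbdl2, Npy, Hacd3, Notch2 and Klf10. Npy, the precursor of neuropeptide Y, stood at 17.9 and 12.9 in TBI at 4 h, against 2.84 and 3.36 in sham. At 24 h it stood at 3.00 and 2.16 in TBI, against 2.36 and 3.33 in sham, and the groups overlapped. Klf10, an early response transcription factor, stood at 85.0 and 176 in TBI at 4 h, against 21.6 and 21.3 in sham, and at 24 h at 9.33 and 9.13 in TBI, against 29.3 and 9.16 in sham. Hsd11b1 stood at 13.4 and 45.7 in TBI at 4 h, against 5.48 and 13.4 in sham. Among the immediate early genes at 24 h, Arc, the activity-regulated synaptic protein, stood at 4.21 and 6.23 in TBI, against 17.2 and 6.70 in sham. Its log2 difference was -1.07 (adjusted p = 1), and both TBI pools lay below both sham pools.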

How the data were processed

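Spot intensities were deposited as unscaled values of 32 CodeLink rat arrays, hybridised with RNA from captured neurons after 2 rounds of linear amplification and quantified with CodeLink Expression Analysis 4.1.0, per the file headers. Values below 0 occur in them, so that local background was taken to be subtracted, which the sources used here do not state. The authors also deposited a ratio of each intensity to the array median, used here as an alternative. Genome build and alignment do not apply to these probes.

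Intensities were divided by the median of their array, floored at 0.1, log2-transformed and averaged over the duplicate arrays of a pool, leaving out masked and irregular spots. Of 33849 probes, 17635 were kept because in 1 or more of the 8 groups each of the 4 arrays was above background. Differences were tested with limma 3.58.1 in R 4.3.3 over all 16 pools, with Benjamini-Hochberg adjustment over the probes tested. A gene was represented by its probe of highest mean. Of all probes, 16878 had 1 gene symbol in the platform annotation, 182 had several and 16766 had no name. Named genes were the 15 of smallest p on each side among genes with an established symbol above background on all 4 arrays of TBI or sham at 24 h, the 8 on each side for the change between times, members of the gene lists, and Hsd11b1 and Nfkbia. The comparison, the named-gene rule and the gene lists were chosen with earlier results of these data known. The code was tested on simulated data. The number of arrays limits the precision. Alternatives covered scaling, floor, filter, duplicate arrays, left-out pools, groups in the fit, replicate number and slide run. Some items withheld for evaluation are not reported here.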

Additional observations from a re-analysis of the deposited data

Results flagged for a closer look

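For 10 named genes all TBI pools lay on one side of the sham pools at 24 h and on the other side at 4 h. The share of all genes that did so was not counted. All of the 10 but Kcng1 were named for a small p of the change between the times. Their reversal follows in part from that choice. The change in the injury effect between the times (24 h minus 4 h, log2) was tested with limma for each, and none passed the adjusted threshold, with adjusted p from 0.741 to 1. The 4 h pools lay partly in another slide run, whose part in these changes was not tested for single genes. Tnc, a matrix glycoprotein, had a change of 7.60, and its 4 h levels were 0.116 and 0.301 in TBI, against 2.31 and 1.12 in sham. It was above background on no TBI array at 4 h and no sham array at 24 h, so that its change rests on values below background. Vim, an intermediate filament gene, had a change of 3.98, with 5.79 and 21.2 in TBI at 4 h, against 39.4 and 30.5 in sham. The change was 4.15 for Tlr2, 3.55 for Cd68, 3.69 for Cfb (complement factor B) and 3.24 for Pdgfrb, the receptor that marks pericytes. Pdgfrb was above background on no TBI array at 4 h, and Tlr2 and Cd68 on no sham array at 24 h. In the other direction it was -3.34 for Notch2, -2.79 for Prss35, -2.55 for Hacd3 and -1.92 for Kcng1. Prss35, a secreted serine protease, stood at 49.99 and 73.2 in TBI at 4 h, against 17.3 and 22.1 in sham, and at 10.9 and 10.9 in TBI at 24 h, against 51.2 and 11.6 in sham.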

How the results depend on the processing

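The count of 0 probes at an adjusted p below 0.05 changed in 3 settings, not all of which kept the same probes. It was 43 (18 higher, 25 lower) with TBI and sham at 24 h fitted alone, 12 (11 higher, 1 lower) with the pool as a random block over all arrays, and 2 with array a alone, and the cause was not tested. It was 0 with each pool left out in turn (0 to 0). Probes over 2-fold numbered 2433 higher and 2385 lower with no filter, 385 and 578 with probes above background on all 4 arrays of TBI or sham at 24 h, and 123 and 227 with those above it on all 8 arrays. Genes over 2-fold numbered 853 and 648, 218 and 161, and 83 and 79 in these settings, whose filters test more or fewer probes. With 1 pool left out, probes over 2-fold ranged from 928 to 1601 higher and 1069 to 3987 lower, and genes from 420 to 802 higher and 302 to 1631 lower. Under the rule of the study the counts were 287 higher and 370 lower with array a alone, 255 and 333 with array b alone, 84 lower among probes above background on all 8 arrays, and with 1 pool left out 158 to 655 higher and 254 to 1985 lower. The change between the times had 0 to 1 probes at the adjusted threshold with 1 pool left out, the 1 being Pcolce without the second TBI pool at 24 h. Nfkbia reversed to 0.29 without the first sham pool, and with 1 pool left out ranged from -0.56 to 0.29. The 30 named genes kept their direction with quantile scaling, with the authors' ratios and with each 24 h pool left out in turn. Their TBI and sham pools did not overlap, so that leaving out 1 pool could not reverse them. The authors' ratios are nearly the same values as those used here.

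The replicate block, with the pool number of the titles as a block, gave 0 probes at an adjusted p below 0.05 at 24 h (smallest 0.426) and 334 at an unadjusted p below 0.05, and 0 for the change between the times (smallest 0.175). Nothing in the labels says that the numbers pair pools, and deviations of same-numbered pools correlated at -0.10. Crossed pairing of the sham numbers, chosen after seeing the data, gave 0 and 358 probes. The slide run as a block gave 0 at 24 h (smallest adjusted p 0.307). For the change between the times it gave 0 with a smallest adjusted p of 0.999, against 0.154 without it, and 271 probes at an unadjusted p below 0.05, against 414. Normexp correction was not run, since spot means and local backgrounds were not analysed here.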
